A study of Castanea mollissima with 18 samples.

Results

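Of 33991 gene IDs in an RNA sequencing table of Chinese chestnut (Castanea mollissima) tissue cultures, 199 were higher in every callus library than in every somatic embryo library by a clear margin. They were chosen from the measured values. The level used for the choice was log2(FPKM + 1), where FPKM is the number of sequenced fragments scaled to gene length and to the size of the library. Among the 20365 genes that reached 1 FPKM in at least 6 libraries, a gene qualified when its lowest callus library stood at least 1 above its highest somatic embryo library on this scale, which is a 2-fold difference in FPKM + 1. Of the tested genes, 288 (1.41%) met that gap. Of these, 89 were then left out because a set of 3 close libraries stood at least 1 apart from all other 15 libraries, which left 199 genes (0.977% of those tested). The set of callus 1, 2 and 6, lying above everything else, accounted for 81 of the 89. Because the choice was made on callus against somatic embryo, the difference between the tissues in these genes is given as a description with no test.

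The groups were 6 libraries labelled callus and 12 libraries labelled somatic embryo, numbered in the labels. All 18 were total RNA made into directional Illumina libraries with the same kits. The labels give no line, genotype, age, medium or stage for any culture. Sample titles carry further short codes, such as ys, which are alike in all 18 and not explained. Nor do the labels say whether libraries came from separate cultures, so the spread between libraries may be technical. In earlier work on these data the libraries were grouped by similarity into 6 sets of 3: callus 1, 2 and 6; callus 3, 4 and 5; and somatic embryo 1, 4 and 12; 2, 3 and 11; 5, 6 and 7; and 8, 9 and 10. These sets are not labelled groups, and differences between them are described without a test. The largest share of tested genes with the same FPKM in any pair of libraries was 1.83%, in callus 1 and 2, so no library was an exact copy of another.

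Callus is an unorganised mass of dividing plant cells that forms on wounded tissue or on media with plant hormones. Somatic embryos arise from cultured cells other than a fertilised egg and pass through stages like those of seed embryos. In many woody species both come from the same culture system: callus with embryogenic capacity is multiplied on hormone-containing medium and forms embryos when the auxin is lowered. In Arabidopsis, callus grown on auxin-rich medium carries much of the gene expression of root meristems, and embryo identity depends on a network of seed transcription factors. The gene IDs here carry no names or descriptions, so no member can be assigned to either programme, the tissue labels could not be compared with marker genes, and genes are given by ID.

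Levels of the 199 genes varied widely in both tissues. The median over members of the gene's median callus FPKM was 38.8, and that of its median somatic embryo FPKM was 3.50. For all tested genes the same medians were 15.2 in callus and 13.8 in somatic embryo. In mean level, callus minus somatic embryo was 1.45 to 5.81 on the log2 scale over the members, with a median of 2.72, against 0.12 for all tested genes. On linear FPKM, the ratio of the callus mean to the somatic embryo mean was 2.79 to 257, with a median of 7.94. It was at least 4 in 182 members, at least 10 in 79 and at least 30 in 26. As these are bulk samples, fewer cells of a type and less RNA per cell cannot be told apart.

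**Figure D1:**
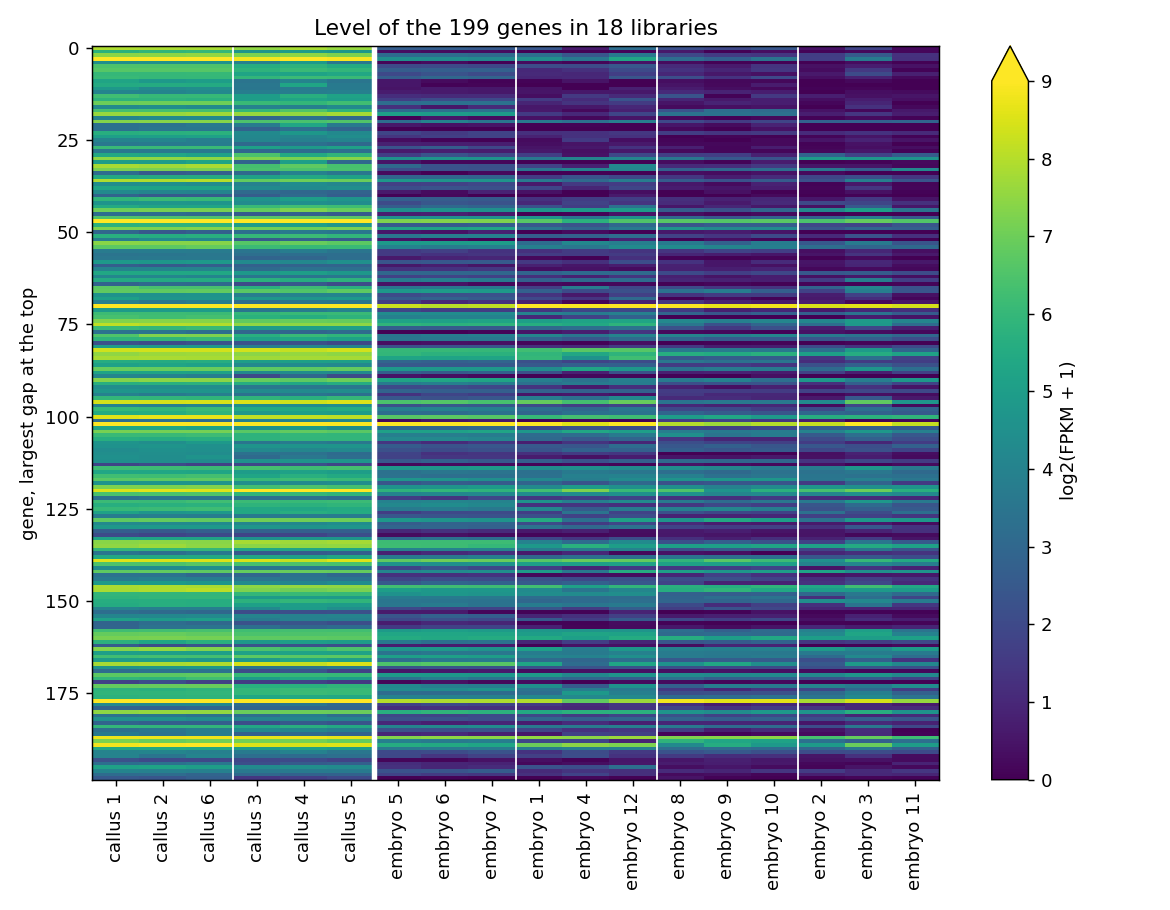
Level of each of the 199 genes, one row per gene with the largest gap between the tissues at the top, in log2(FPKM + 1) as colour (values above 9 share the brightest colour). Columns are the 6 callus libraries and then the 12 somatic embryo libraries, with white lines between the sets of 3 close libraries and a thick line between the tissues. In every row each callus value is higher than each somatic embryo value, as the choice of genes requires. In Cm09G00328.gene and Cm10G01759.gene some somatic embryo libraries also lie above 9, so they share the brightest colour with callus.

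Every member reached at least 1.76 FPKM in every callus library, where the choice requires at least 1. In all 6, 148 members reached 10 FPKM. In 36 members all callus libraries were at 100 FPKM or more, and in 2 at 1000 or more. Shares over all tested genes are not given for these counts. Averaged over the 18 libraries, 20.6% of members and 20.5% of all tested genes were at 50 FPKM or more. The members together held 1.98% ± 0.218 of the summed FPKM of a callus library (SD, n = 6) and 0.331% ± 0.0796 of that of a somatic embryo library (SD, n = 12). In callus this share was 1.73% to 2.21%, with the 3 lowest values in callus 3, 4 and 5. In somatic embryos it was 0.208% to 0.429%, lowest in somatic embryo 11 and 2 and highest in 5, 6 and 7. Mean summed FPKM was 5.96 times higher in callus. The sum was uneven: the 10 members with the highest callus means held 45.3% ± 1.53 of it in callus (SD, n = 6) and 53.6% ± 4.62 in somatic embryos (SD, n = 12). Of the 100 most abundant genes of a callus library 3 or 4 were members, and of those of a somatic embryo library 0 were. Among the 1000 most abundant, members numbered 18 to 29 in callus and 2 to 4 in somatic embryos. Members were 0.977% of all tested genes, and the choice itself places them lower in somatic embryos than in callus.

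**Figure D2:**
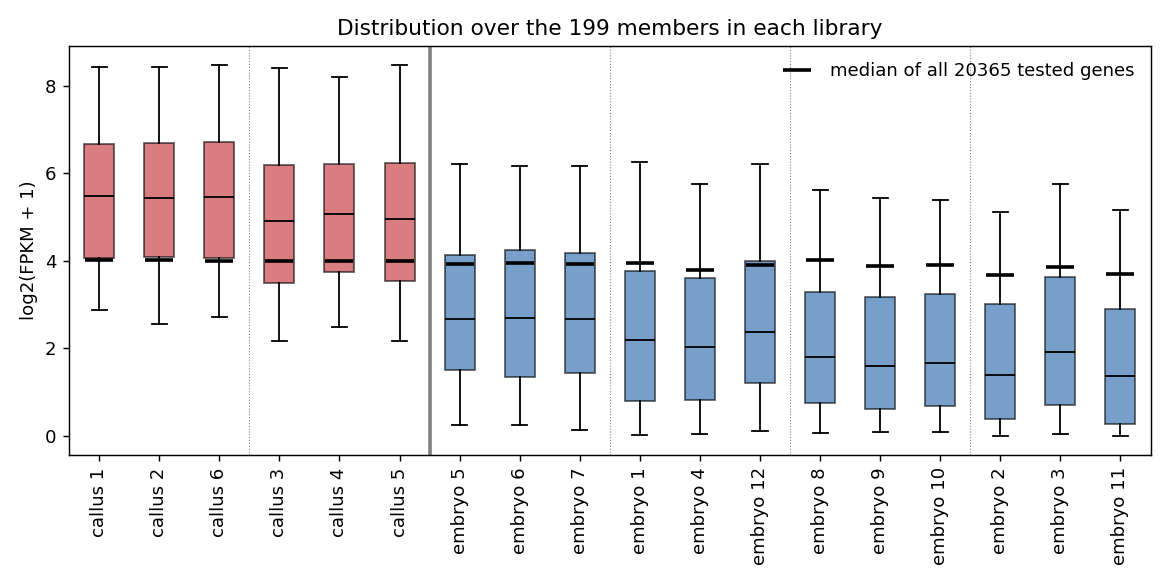
Distribution of log2(FPKM + 1) over the 199 genes in each library, callus in red and somatic embryo in blue: box from lower to upper quartile, line at the median, whiskers from the 5th to the 95th percentile, and a black dash at the median of all 20365 tested genes. The members' median was 4.90 to 5.48 in callus and 1.36 to 2.70 in somatic embryos, while the median of all tested genes stayed between 3.69 and 4.02.

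Most members were not silent in somatic embryos. At least 1 FPKM was reached in all 12 somatic embryo libraries by 95 members, of which 26 reached 10 FPKM in all 12. A further 75 members reached 1 FPKM in some somatic embryo libraries only, and 29 stayed under 1 FPKM in every one. No member was listed at 0 in all 12, 4 were listed at 0 in at least 6, and the highest number was 10 libraries. An individual somatic embryo library had 112 to 162 members at 1 FPKM or more. All callus libraries had 199, which the choice fixes, since a gap of 1 requires at least 1 FPKM in callus. For the counts of members by level in somatic embryos, no shares over all tested genes are given here.

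The members low in every embryo were also the lower ones in callus. In the 29 members under 1 FPKM in all somatic embryos, the median callus level was 7.69 FPKM and the ratio of means 9.01 to 257, with a median of 47.4. In the 26 members at 10 FPKM or more in all somatic embryos, the median callus level was 183 FPKM and the ratio 2.79 to 7.12, with a median of 4.36. The pattern between these ends was graded: the 75 partly detected members had a median callus level of 18.9 FPKM and a median ratio of 11.3, and the 69 members at 1 FPKM in every somatic embryo but not at 10 in all had 54.3 FPKM and 6.09. The choice asks for a fixed gap, which a low gene can meet only from near 0 in somatic embryos, so this order is partly set by it.

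The widest separation between nearest libraries was in Cm02G01646.gene, with a gap of 4.30 on the log2 scale. Its FPKM in callus was 183 at the lowest, 224 at the median and 239 at the highest, and in somatic embryos 0.17, 3.98 and 8.31. The 6 callus libraries lay close together, at 215 ± 23.3 FPKM (SD, n = 6), while somatic embryos averaged 3.56 ± 2.42 FPKM (SD, n = 12) and differed among themselves, with 8.31 in somatic embryo 12 and 0.17 in somatic embryo 11. Second was Cm04G01345.gene, with a gap of 4.11. It had 25.1, 41.7 and 62.2 FPKM in callus at the lowest, median and highest and 0.02, 0.14 and 0.51 FPKM in somatic embryos. This gene was near the floor in all 12 somatic embryo libraries, and in callus it split by set, with 53.1 to 62.2 FPKM in callus 1, 2 and 6 and 25.1 to 30.4 FPKM in callus 3, 4 and 5. Its ratio of means, 257, was the highest of the 199.

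The most abundant members were expressed in both tissues. Cm09G00328.gene had 2656 ± 581 FPKM in callus (SD, n = 6) and 479 ± 224 FPKM in somatic embryos (SD, n = 12), a ratio of 5.54. Its lowest, median and highest callus values were 2092, 2610 and 3334 FPKM, against 206, 448 and 807 FPKM in somatic embryos. Callus 1, 2 and 6 held the 3 highest values of this gene and somatic embryo 8, 9 and 10 the 3 lowest. Cm10G01759.gene had 1814 ± 102 FPKM in callus (SD, n = 6) and 405 ± 98.3 FPKM in somatic embryos (SD, n = 12), a ratio of 4.48. Its callus libraries ran from 1685 to 1957 FPKM and its somatic embryo libraries from 263 to 564 FPKM. Here the callus sets were alike, with means of 1841 FPKM in callus 1, 2 and 6 and 1787 FPKM in callus 3, 4 and 5, and the lowest embryo set was 5, 6 and 7 at 286 FPKM, the set that was highest for Cm09G00328.gene at 755 FPKM.

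**Figure D3:**
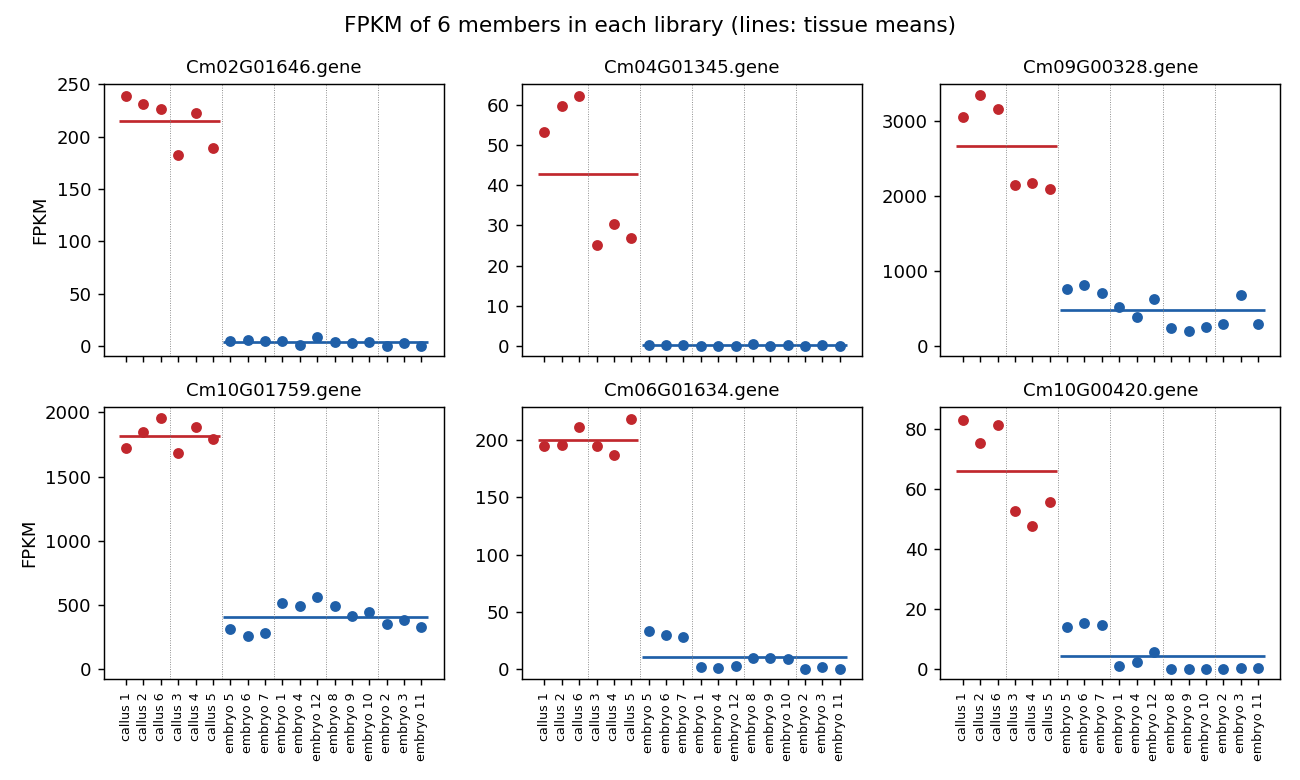
FPKM of 6 members in each of the 18 libraries, callus as red points and somatic embryo as blue points, with horizontal lines at the tissue means and dotted lines between the sets of close libraries; the vertical axes differ. Cm06G01634.gene and Cm10G00420.gene show somatic embryo 5, 6 and 7 above the other embryo sets, and Cm04G01345.gene shows callus 1, 2 and 6 above callus 3, 4 and 5.

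Of the 148 members at 10 FPKM or more in every callus, Cm00G00625.gene had the lowest maximum in somatic embryos. It had 10.9, 21.6 and 27.5 FPKM in callus (lowest, median, highest) and 0, 0.08 and 0.36 FPKM in somatic embryos, with means of 19.9 ± 6.13 (SD, n = 6) and 0.13 ± 0.11 (SD, n = 12). The highest embryo value was in somatic embryo 12 and a value of 0 was listed in somatic embryo 2. The 4 embryo sets differed by only 0.15 on the log2 scale, since all lay near 0.

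In most members callus 1, 2 and 6 were the higher callus set. In 129 members (64.8%) callus 1, 2 and 6 all lay above callus 3, 4 and 5, where 32.2% of all tested genes did so. The opposite order was found in 28 members (14.1%), against 37.5% of all tested genes, and in 42 members the sets overlapped. The choice bears on these counts, since it left out genes with callus 1, 2 and 6 at least 1 above all other libraries. Among all 288 genes with the gap, before that step, 214 (74.3%) had callus 1, 2 and 6 above and 32 (11.1%) below. Of the 2221 other genes in which every callus lay above every somatic embryo but by a smaller gap, 1180 (53.1%) had callus 1, 2 and 6 above and 341 (15.4%) below. The direction was therefore shared with genes that are not members.

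The size of the difference between the callus sets is limited by the choice, which removed genes in which every library of a callus set stood at least 1 from all others. Callus 1, 2 and 6 minus callus 3, 4 and 5 ran from -0.84 to 1.62 on the log2 scale over the members, with a median of 0.38, against -0.03 for all tested genes. It lay within 0.5 of 0 in 105 members (52.8%; 67.1% of all tested genes) and reached 1 in 23 (11.6%; 6.55%). Among the 288 genes before that removal, 104 (36.1%) reached 1. The lowest callus library was callus 3, 4 or 5 in 160 members and callus 1, 2 or 6 in 39, and callus 3 was lowest in 91. No shares over all tested genes are given for these counts, and the choice itself used the lowest callus library. The members' median FPKM in a library was 42.4 to 43.6 in callus 1, 2 and 6 and 28.9 to 32.6 in callus 3, 4 and 5. Within each set the 3 libraries were close, but the sets had been grouped by similarity. The median standard deviation of a member on the log2 scale was 0.064 in callus 1, 2 and 6, against 0.075 for all tested genes. In callus 3, 4 and 5 it was 0.107, against 0.084.

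**Figure D4:**
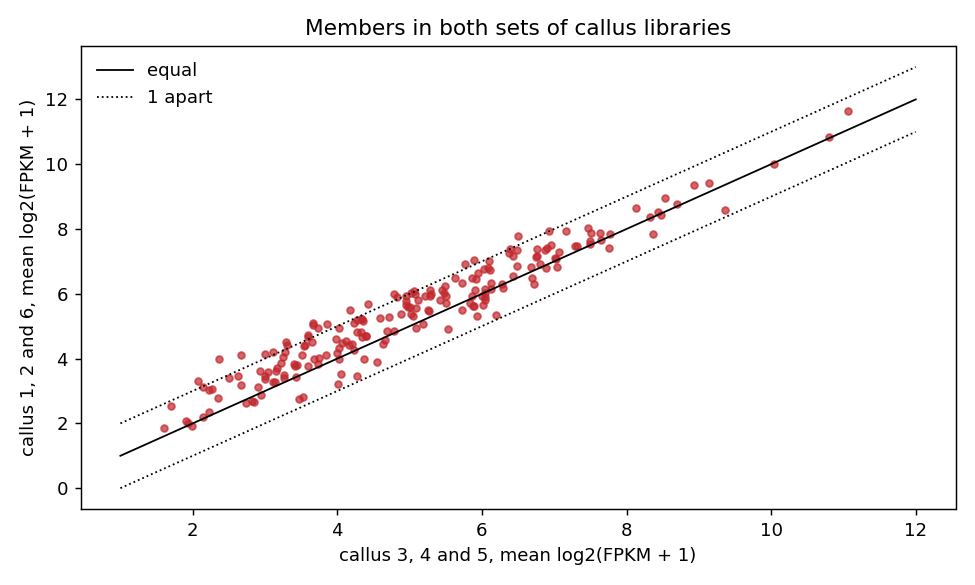
Mean log2(FPKM + 1) of each of the 199 genes in callus 1, 2 and 6 (vertical axis) against callus 3, 4 and 5 (horizontal axis), one point per gene, with a solid line for equal levels and dotted lines 1 above and below it. More points lie above the solid line than below it, 23 lie on or above the upper dotted line and 0 below the lower one.

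Cm08G00230.gene and Cm06G01622.gene had callus 1, 2 and 6 furthest above the other callus set. Cm08G00230.gene had 13.3 to 16.2 FPKM in callus 1, 2 and 6 and 2.92 to 7.04 FPKM in callus 3, 4 and 5, a difference of 1.62 between set means on the log2 scale. It was at most 0.43 FPKM in somatic embryos and listed at 0 in 3 of them. Cm06G01622.gene had 13.0 to 19.1 FPKM in callus 1, 2 and 6 and 4.79 to 6.25 FPKM in callus 3, 4 and 5, a difference of 1.43, and was listed at 0 in 7 of 12 somatic embryo libraries, with 0.81 FPKM the highest. Both genes were retained although the set means differed by more than 1, because the nearest libraries of the sets were closer than that.

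The opposite order was strongest in Cm04G02525.gene and Cm02G01117.gene. Cm04G02525.gene had 37.1 to 44.7 FPKM in callus 1, 2 and 6 and 67.1 to 76.5 FPKM in callus 3, 4 and 5, a difference of -0.84 on the log2 scale, and 0.33 to 9.40 FPKM in somatic embryos. Cm02G01117.gene had 8.89 to 11.5 FPKM in callus 1, 2 and 6, and 12.9, 39.1 and 12.1 FPKM in callus 3, 4 and 5. The difference between its set means, -0.82 on the log2 scale, was -0.29 without callus 4. In somatic embryos it reached at most 0.87 FPKM and was listed at 0 in 4 libraries. The smallest range over callus was in Cm01G01341.gene, at 405, 432 and 433 FPKM (lowest, median, highest), or 0.10 on the log2 scale. In somatic embryos that gene had 73.4, 168 and 198 FPKM, with its lowest values in somatic embryo 11 and 2, and its ratio of means, 2.79, was the lowest of the 199.

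By set means, somatic embryo 5, 6 and 7 came closest to callus in most members. By the single highest embryo library they did so in 93 members, against 62 for 1, 4 and 12, 32 for 8, 9 and 10 and 12 for 2, 3 and 11. No shares over all tested genes are given for these library counts. The mean of somatic embryo 5, 6 and 7 was the highest of the 4 embryo sets in 111 members (55.8%), where this held for 25.8% of all tested genes. Somatic embryo 1, 4 and 12 were highest in 48 members (24.1%), a share near that of all tested genes (27.2%). Somatic embryo 8, 9 and 10 were highest in 34 members (17.1%; 32.9% of all tested genes) and somatic embryo 2, 3 and 11 in 6 (3.02%; 14.1%). The set with the lowest mean was somatic embryo 2, 3 and 11 in 93 members (46.7%) and 8, 9 and 10 in 72 (36.2%), which were also the commonest lowest sets over all tested genes, at 36.5% and 26.5%. Somatic embryo 1, 4 and 12 were lowest in 22 members (11.1%; 19.1% of all tested genes) and 5, 6 and 7 in 12 (6.03%; 17.9%). The most frequent full order, with 41 members (20.6%; 6.39% of all tested genes), was 5, 6 and 7, then 1, 4 and 12, then 2, 3 and 11, then 8, 9 and 10. Second was the same order with the last 2 sets exchanged, in 34 members.

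Genes with every callus above every somatic embryo by a smaller gap showed the same first place with a smaller share, unlike all tested genes. Of the 2221 genes with every callus above every somatic embryo by a smaller gap, 837 (37.7%) had their highest embryo mean in somatic embryo 5, 6 and 7. Over 19867 genes that had no gap of 1 in either direction, Spearman's correlation of set means with callus 3, 4 and 5 was 0.892 for somatic embryo 5, 6 and 7, 0.884 for 1, 4 and 12, 0.868 for 8, 9 and 10 and 0.855 for 2, 3 and 11. With callus 1, 2 and 6 the values were 0.835, 0.823, 0.788 and 0.797 in that order. Each of these correlations runs over genes of the same libraries, and genes are no replicates.

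**Figure D5:**
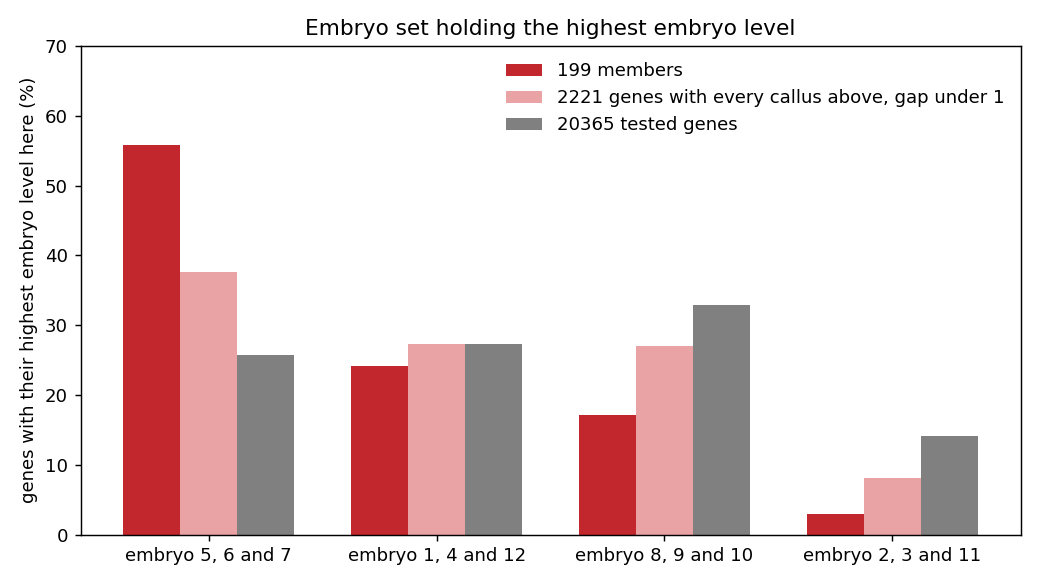
Share of genes (percent) whose highest embryo set mean was in each set of 3 somatic embryo libraries, for the 199 members (red), for the 2221 genes with every callus above every somatic embryo by less than the required gap (pink) and for all 20365 tested genes (grey). Somatic embryo 5, 6 and 7 held 55.8%, 37.7% and 25.8%.

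Set by set, the difference between callus and somatic embryo was smallest for callus 3, 4 and 5 against somatic embryo 5, 6 and 7. There the median over members was 1.85 on the log2 scale, and 86 of 199 members differed by at least 2. For callus 1, 2 and 6 against somatic embryo 8, 9 and 10 the median was 3.23, with 175 members at 2 or more, and against somatic embryo 2, 3 and 11 it was 3.18, with 188 members. Over all tested genes the median difference of the 8 pairs of sets lay between 0.04 and 0.29. The smallest difference of any member in any pair was 1.15, where the choice requires at least 1. No shares over all tested genes are given for the counts at 2 or more.

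Members, like all tested genes, varied more among somatic embryos than in callus. The median standard deviation of a member was 0.27 on the log2 scale over the 6 callus libraries and 0.57 over the 12 somatic embryo libraries, against 0.20 and 0.46 for all tested genes. It was larger in somatic embryos in 153 members (76.9%), against 83.5% of all tested genes. The range over the 4 embryo set means had a median of 1.19 in members and 0.97 in all tested genes. In 17 members (8.54%) somatic embryo 5, 6 and 7 had a mean at least 1 above the next embryo set, against 3.78% of all tested genes. In 8 members (4.02%) somatic embryo 8, 9 and 10 had a mean at least 1 below the next embryo set, against 4.47% of all tested genes. The choice bears on this share, since it left out genes with that set at least 1 below all other libraries. Of the genes with the gap, 5 were left out for this alone and 1 for this together with callus 1, 2 and 6.

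The widest ranges over the embryo sets were in Cm06G01634.gene and Cm10G00420.gene, at 4.02 and 3.98 on the log2 scale. Cm06G01634.gene stood at 187 to 218 FPKM in callus, with no split by set. In somatic embryos it had a mean of 30.9 FPKM in 5, 6 and 7 and 9.45 FPKM in 8, 9 and 10, but 1.86 FPKM in 1, 4 and 12 and 1.02 FPKM in 2, 3 and 11. On the log2 scale the range of this gene over the callus libraries was 0.22, against 4.02 over the embryo set means. In FPKM its callus libraries differed by more than neighbouring embryo sets did. Cm10G00420.gene had 75.2 to 83.1 FPKM in callus 1, 2 and 6 and 47.6 to 55.6 FPKM in callus 3, 4 and 5. In somatic embryo 5, 6 and 7 it had 14.2 to 15.4 FPKM, in 1, 4 and 12 it had 1.04, 2.41 and 5.92 FPKM, and in 8, 9 and 10 it was listed at 0 in each library.

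Members fill the range just above the threshold, so the set has no natural edge. The gap had a median of 1.39 and an upper quartile of 1.72, was at least 2 in 38 members and at least 3 in 7. Between 1 and 1.1 lay 28 members, and between 0.9 and 1 lay 51 genes that would otherwise have qualified. Just inside was Cm02G01848.gene, with a gap of 1.00, 1.76 to 5.57 FPKM in callus and 0 to 0.38 FPKM in somatic embryos. Just outside was Cm05G01062.gene, with 63.0 to 77.3 FPKM in callus and 22.4 to 31.0 FPKM in somatic embryos. The first of these genes was close to 0 in somatic embryos and the second was expressed in every library.

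The members were scattered over the ID series. Each of the 13 prefixes, Cm00 to Cm12, held between 2 and 25 members, or 0.566% (Cm08) to 1.43% (Cm02) of its tested genes. In 17 members another member lay within 5 ID numbers, and in 11 it held the number directly before or after. The tested genes within 5 numbers of a member, each counted once, were 1198, of which 17 were members themselves, or 1.42%, against 0.977% of all tested genes. A further 15 of them, or 1.25%, belonged to the opposite set, higher in every somatic embryo, against 0.859% of all tested genes. The 1181 neighbours that were not members had a median callus minus somatic embryo difference of 0.20 on the log2 scale, against 0.12 for all tested genes, and in 14.8% of them every callus lay above every somatic embryo, against 12.3% of all tested genes.

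The 17 neighbouring members formed 8 runs, 7 of them pairs. The longest was Cm02G02633.gene, Cm02G02634.gene and Cm02G02635.gene, which averaged 11.9 ± 1.26, 8.22 ± 1.30 and 3.91 ± 0.67 FPKM in callus (SD, n = 6) and 1.54 ± 0.72, 0.91 ± 0.71 and 0.41 ± 0.32 FPKM in somatic embryos (SD, n = 12). All 3 were lowest in somatic embryo 2, 3 and 11 or in 1, 4 and 12, and their callus sets differed by at most 0.16 on the log2 scale. Cm03G02309.gene and Cm03G02314.gene, picked out after their values were seen, were the pair with the largest difference between the tissues, at 4.61 and 5.13 on the log2 scale. The difference between callus sets had the same sign within each of the 8 runs, positive in 7 of them, where it was positive in 80.4% of all members. Whether neighbouring IDs are near-identical copies that share fragments is not given in the sources used here, so levels within a run are uncertain.

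Set beside its opposite, the group of 199 had a smaller median difference between the tissues. By the same steps with the tissues exchanged, 210 genes (1.03% of those tested) were at least 1 higher in every somatic embryo than in every callus, of which 35 were left out and 175 (0.859%) remained. The median difference between tissue means was 2.72 on the log2 scale in the 199 and 3.30 in the 175, each in its own direction. Leaving out genes with a set standing apart took 30.9% of the 288 genes with the gap and 16.7% of the 210. Both medians therefore come after unequal removal, and medians before that step are not given. In their lower tissue the 199 had a median level of 3.50 FPKM and the 175 had 0.44 FPKM. Somatic embryo 5, 6 and 7 lay nearest to callus in the opposite set as well, with the lowest embryo mean in 105 of 175 genes (60.0%; 17.9% of all tested genes). Somatic embryo has 12 libraries and callus 6, so the low side of the 199 must hold in more libraries than that of the 175, and no test of the difference between the sets was made.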

How the data were processed

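Total RNA of 6 callus and 12 somatic embryo libraries was sequenced. The authors deposited one table of FPKM for the whole series, with 2 decimals. Per the submitters' processing notes, FastQC 0.11.9, Trimmomatic and STAR 2.7.10b were used; no source used here gives the FPKM program, genome build or annotation. Samples were grouped by the tissue label, and 18 columns were matched by sample title; 195 further columns were not used. FPKM depends on each library's total, so abundant genes lower all others.

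Values were transformed to log2(FPKM + 1), and the choice described in the report was applied in Python 3.11.15 with pandas 2.3.3 and NumPy 2.4.6; it was tested on simulated data. The members, the sets of close libraries, the named-gene rule and the alternatives were chosen with earlier results of these data known. By that rule the IDs named were the extremes in gap, callus level, callus set difference, embryo set range, callus range and embryo level, the neighbours of the threshold and the longest run of ID numbers. Gene lists could not be matched to the IDs and were not run.

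Depth is unknown. In 4 pairs of libraries at most 14.8% of low genes lay within 0.02 (log2) of the steps that whole reads would leave, against 6.95% at other offsets, so reads were not recovered and no counting interval is given. No test was made, since the choice used the contrast between the tissues and the sets are not labelled groups. Alternatives were other pseudocounts, filters, scalings, gaps and set distances, and libraries or sets left out.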

Additional observations from a re-analysis of the deposited data

Results flagged for a closer look

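Among 24 groups of 6 callus values examined, 2 were flagged for a library apart from the other 5. For values without ties, chance alone marks about 1 group in 20. Cm02G01117.gene had 39.1 FPKM in callus 4, against 8.89 to 12.9 FPKM in the other callus libraries. The other flag was a count: callus 4 had 4 members among its 100 most abundant genes, where the other 5 had 3 each. With those 5 tied, a difference of any size is flagged, so this flag carries no weight. The part of callus 4 in other results was not tested beyond leaving it out.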

How the results depend on the processing

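The count of 199 members moved by less than 1.5 times under 30 of the 35 alternatives. It was 537 with a gap of 0.5 and 38 with a gap of 2. It was 389 without callus 1, 2 and 6, 879 without callus 3, 4 and 5 and 315 without somatic embryo 5, 6 and 7; fewer libraries then have to meet the gap, and the callus set that is left cannot be judged as standing apart. All 199 genes were among the 389, the 879 and the 315. After median-of-ratios scaling 164 members were left, all of them among the 199, and the median tested gene was at -0.02 in place of 0.12. With each of the 18 libraries left out in turn, on the same tested genes, the count was 193 to 217, the median difference between the tissues 2.62 to 2.76, members with callus 1, 2 and 6 above 128 to 138 and below 28 to 35, and members highest in somatic embryo 5, 6 and 7 numbered 107 to 119. The members lowest in embryo 1, 4 and 12 numbered 21 to 28, in 2, 3 and 11 80 to 110, in 5, 6 and 7 10 to 13 and in 8, 9 and 10 56 to 84, and members with a neighbouring member 15 to 23. The median difference was 3.17 with a pseudocount of 0.1 and 3.37 with 0.01. Members lowest in somatic embryo 1, 4 and 12, 22 as reported, were 34 with either pseudocount and 13 with a mean of at least 5 FPKM. Members with another within 5 ID numbers, 17 as reported, were 27 with either pseudocount, 10 with the mean of at least 5 FPKM and 9 after median-of-ratios scaling; this alternative and that for the highest embryo set were added after seeing the data. Each of the 17 named genes kept its direction under the 23 settings run for it. Leaving out a library or changing the pseudocount could not reverse it, since every callus lay above every somatic embryo in these genes. Of 391 values, 350 moved by less than the spread over callus. No paired analysis was possible because no result comes from a test. With depth unknown, it cannot be said how low a level would have been detected in members near 0 in somatic embryos.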
